A study of Penicillium oxalicum with 10 samples.

Results

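PDE_04496, PDE_09491 and PDE_04260 are 3 genes of the mould Penicillium oxalicum that the annotation names for enzymes of pigment synthesis. They were taken by locus number from the 9859 genes of the deposited table. Their locus numbers lie apart from those of the main pigment genes PDE_09236, PDE_09237 and PDE_09239. The annotation calls PDE_04496 a scytalone dehydratase, PDE_09491 a naphtho-gamma-pyrone polyketide synthase and PDE_04260 a tyrosinase.

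Moulds coat their conidia, the asexual spores, with pigments that shield against light and oxidants. In Aspergillus species a polyketide synthase joins acetate units into a naphthopyrone. It is a precursor of the spore pigment in A. nidulans and is carried on to dihydroxynaphthalene melanin in A. fumigatus. Scytalone dehydratase removes water from the intermediates of that melanin route, in alternation with reductases that act on hydroxynaphthalenes. Tyrosinase belongs to a different route, in which tyrosine is oxidised to the quinones of DOPA melanin.

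Messenger RNA was sequenced from mycelia of 9 deletion strains, named in the labels for swi6, stuA, abaA, wetA, flbE, flbD, flbC, flbB and flbA, and of the wild type, labelled M12. In related moulds the flb genes act upstream of BrlA, the activator of spore formation, wetA and abaA act after it, and stuA shapes the spore-bearing stalk. All cultures started from conidia grown for 20 h at 30 °C with 2% glucose, after which the mycelia spent 48 h in new medium. The labels give no further allele, and they do not say how the deletions were made or whether a strain is 1 clone. Each genotype is 1 library, so no value has a replicate error, no test across libraries was possible, and ranges in brackets are exact 95% intervals that cover counting error only. Levels are given as RPKM, the reads per kilobase of gene length, scaled by the read total of the library.

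Library depth ran from 3.10 to 7.60 megareads, lowest in the flbA deletion library, where 1 gene (PDE_06605) took 27.9% of all reads. The targeted genes were checked where the annotation allows it. The genes paired by protein family with stuA (PDE_04095, APSES family) and swi6 (PDE_08896, chromobox family, as Swi6 of fission yeast) had 1 read each in their own deletion libraries, against 377 and 43.9 RPKM in wild type. PDE_03008, which bears the name FlbD, stood at 327 RPKM in the library labelled flbD deletion, against 341 RPKM in wild type. A gene of the AbaA family (PDE_02932) had 59.1 RPKM in the library labelled abaA deletion, against 28.5 RPKM in wild type. In these 2 libraries the genes paired with the labels by annotation were still read, so the libraries are called by label only. Whether the deleted locus is another gene of the same family was not tested. The labels give mycelia as the tissue, which was not checked against markers of hyphae.

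The 3 names differ in how well they are founded. PDE_04496 is 513 bases long (171 codons) and its best KEGG match is the Penicillium chrysogenum scytalone dehydratase Pc21g16420, with a bit score of 287 (E-value 2e-99). PDE_09491 is 6426 bases long (2142 codons) and matches the P. chrysogenum polyketide synthase Pc21g16000 with a bit score of 3461. PDE_04260 is only 309 bases long (103 codons), and its match to a tyrosinase of Aspergillus clavatus has a bit score of 58.5 (E-value 6e-10). The other 3 genes named tyrosinase are 861 to 1236 bases long with bit scores of 382 to 483. PDE_04260 therefore carries the name on a short and weak match, and is called tyrosinase-named below. Chromosome positions were not used here, so neighbours are given by locus number.

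All 3 genes had their highest level in wild type, as had 17.9% of the 9134 genes whose mean over the 10 libraries reached 1 RPKM. A gene was counted as lower when log2(RPKM + 1) in a deletion library was at least 1 below wild type, which is 2-fold on that scale. PDE_04496 and PDE_04260 were lower by this measure in 9 of 9 deletion libraries, as were 2.23% of those genes. PDE_09491 was lower in 8, and 4.25% of the genes were lower in at least 8. Per library, the share of genes that were lower was 37.4% in the flbA, 8.85% in the flbC, 21.2% in the flbE and 23.0% in the flbB deletion library. It was 20.9% in the wetA, 11.9% in the swi6 and 14.6% in the stuA deletion library. In the libraries labelled flbD and abaA deletion it was 12.7% and 12.3%. Fewer pigment-forming cells and less RNA per cell cannot be told apart in such bulk libraries.

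PDE_04496, the scytalone dehydratase, stood out in wild type as an abundant transcript, above 96.7% of all genes. It had 195 RPKM in the flbB, 155 RPKM in the flbE and 151 RPKM in the labelled flbD deletion library, against 417 RPKM in wild type. It had 101 RPKM in the labelled abaA, 86.1 RPKM in the wetA and 46.5 RPKM in the flbC deletion library. Levels fell furthest in the swi6 (5.91 RPKM), stuA (1.10 RPKM) and flbA (0 RPKM) deletion libraries. In this order of 10 libraries neighbours differed beyond counting error except the flbE and labelled flbD pair (ratio 1.03, 0.915 to 1.16), the labelled abaA and wetA pair (1.17, 0.998 to 1.37) and the stuA and flbA pair.

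The 3 lowest libraries stood on few PDE_04496 reads. The swi6 deletion library had 17 reads over 79.0% of the gene, and the stuA deletion library had 4 reads over 32.55%. At the wild-type level the swi6 deletion library would have had 1201 and the stuA deletion library 1522 reads. PDE_04496 was therefore 381-fold lower (148 to 1399) without stuA, and 70.7-fold lower (43.9 to 122) without swi6. With 0 reads in the flbA deletion library, set at 3 reads, it was at least 221.5-fold lower there. The exact 95% interval, which is 2-sided, began at 179.8-fold. The flbC deletion followed at 8.98-fold lower (7.35 to 11.1), and the wetA deletion at 4.85-fold lower (4.26 to 5.54).

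The smallest change of PDE_04496 was in the flbB deletion library, 2.14-fold lower (1.94 to 2.35). There 20.0% of the 9134 genes had a difference as low or lower, so this change does not set the gene apart from the background. With median-of-ratios scaling of the libraries the difference in flbB was -0.70 on the log2(RPKM + 1) scale and no longer counted as lower. In the flbC deletion library 1.28% of genes had a difference as low or lower, and in the stuA deletion library 0.252%. Genes at a low level in wild type cannot reach such a difference even at 0 reads, so these shares partly reflect abundance.

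**Figure D1:**
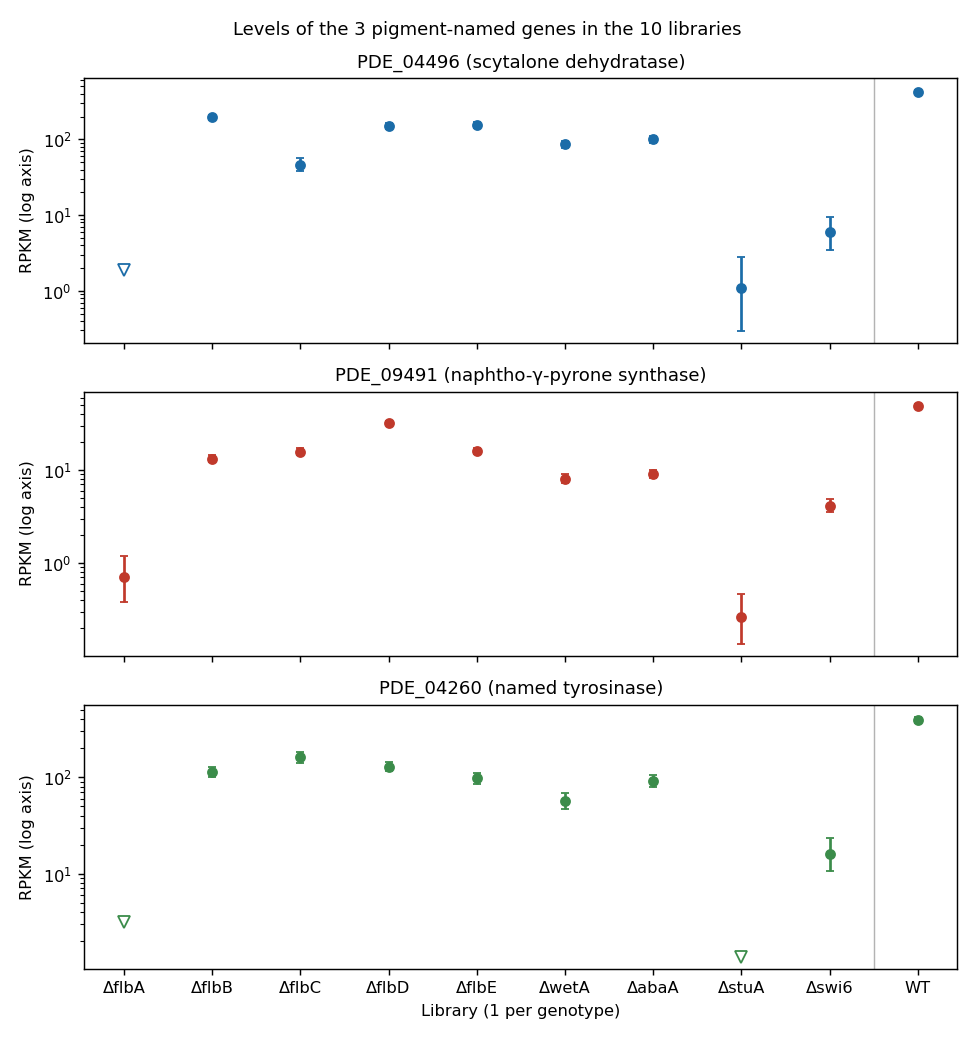
RPKM (log axis) of PDE_04496, PDE_09491 and PDE_04260 in the 9 deletion libraries and wild type, 1 library each, with exact 95% counting intervals. Open triangles mark the value of 3 reads where a library had 0 reads. Wild type is highest for each gene, and the flbA and stuA deletion libraries are lowest.

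PDE_09491, the synthase that would build a naphthopyrone, was expressed at a lower level, above 69.7% of genes in wild type. It had 31.7 RPKM in the labelled flbD deletion library, 16.04 RPKM in the flbE, 13.2 RPKM in the flbB and 15.7 RPKM in the flbC deletion library, against 49.2 RPKM in wild type. It had 9.09 RPKM in the labelled abaA, 8.05 RPKM in the wetA and 4.13 RPKM in the swi6 deletion library. The flbA deletion library had 0.702 RPKM and the stuA deletion library, the lowest, 0.263 RPKM. Only the flbE and flbC pair (ratio 1.02, 0.907 to 1.15) and the labelled abaA and wetA pair (1.13, 0.976 to 1.31) did not differ beyond counting error among neighbours in the order of levels. Counting error does not cover scaling, and the order of the flbC and flbB deletion libraries reversed with median-of-ratios scaling. The log2 difference was then -1.69 in flbC and -1.45 in flbB, against -1.59 and -1.82 with read totals.

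The synthase was 187-fold lower (107 to 364) in the stuA deletion library, from 12 reads over 7.24% of its length, where 2249 reads would stand for the wild-type level. The flbA deletion library, with 14 reads, was 70.1-fold lower (41.7 to 129). The swi6 deletion library, with 149 reads, was 11.9-fold lower (10.1 to 14.2). In the flbA deletion library 37.4% of genes were lower, but only 2.98% had a difference as low or lower than the synthase. Here too, genes at a low level in wild type could not reach such a difference. The gene was 1.55-fold lower (1.45 to 1.67) in the labelled flbD deletion library, the one library where it was not counted as lower. There 26.3% of genes had a difference as low or lower.

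PDE_04260, the tyrosinase-named gene, was about as abundant as PDE_04496 in wild type, above 96.5% of genes. It had 162 RPKM in the flbC, 129 RPKM in the labelled flbD, 114 RPKM in the flbB and 98.0 RPKM in the flbE deletion library, against 395 RPKM in wild type. It had 92.0 RPKM in the labelled abaA, 56.8 RPKM in the wetA and 16.2 RPKM in the swi6 deletion library. No read was found in the flbA or the stuA deletion library. Within the run of labelled flbD, flbB, flbE and labelled abaA deletion libraries, neighbours did not differ beyond counting error, with ratios of 1.07 to 1.16. At its ends they did differ. The flbC deletion library lay above the labelled flbD one (1.25, 1.05 to 1.50), and the labelled abaA above the wetA one (1.62, 1.28 to 2.05).

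The 0 reads of PDE_04260 stand against 378 reads that the wild-type level would give in the flbA deletion library and 867 in the stuA deletion library. Set at 3 reads, the gene was at least 126-fold lower in the flbA and at least 289-fold lower in the stuA deletion library. The exact 95% intervals began at 102-fold for flbA and 234-fold for stuA. The swi6 deletion library, with 28 reads, was 24.4-fold lower (16.7 to 37.1), and the wetA deletion library 6.95-fold lower (5.69 to 8.55). Its smallest change with read totals was in the flbC deletion library, 2.43-fold lower (2.08 to 2.84). There 6.23% of genes had a difference as low or lower. With median-of-ratios scaling the log2 difference was -1.395 in the flbB and -1.396 in the flbC deletion library. Which change was smallest thus depended on scaling.

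The 3 genes did not move in one proportion. How far one gene changed relative to another within a library is a ratio of their changes from wild type, in which library depth and scaling cancel. Of 27 such ratios between members, 1 could not be formed, since PDE_04496 and PDE_04260 were both at 0 in the flbA deletion library. The ratio of PDE_04496 to PDE_04260 was 0.271 (0.208 to 0.350) in the flbC and 0.346 (0.176 to 0.660) in the swi6 deletion library. In both libraries the scytalone dehydratase had lost more of its wild-type level than the tyrosinase-named gene. The same ratio was 1.62 (1.35 to 1.94) in the flbB, 1.50 (1.24 to 1.81) in the flbE and 1.43 (1.13 to 1.83) in the wetA deletion library, where PDE_04496 kept more. In the labelled abaA deletion library it was 1.03 (0.844 to 1.27).

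Against the synthase, PDE_04496 kept less in the flbC (0.349, 0.276 to 0.438), the swi6 (0.169, 0.0951 to 0.281) and the labelled flbD deletion library (0.561, 0.496 to 0.635). In the flbA deletion library, where PDE_04496 had 0 reads, the interval of this ratio ended at 0.447. PDE_04496 kept more in the flbB deletion library (1.75, 1.53 to 2.00), and by smaller margins in the wetA and labelled abaA deletion libraries. The flbC and swi6 deletion libraries are thus the ones in which the scytalone dehydratase kept less than both other genes beyond counting error. The synthase kept more than PDE_04260 in the labelled flbD (1.96, 1.68 to 2.30), swi6 (2.05, 1.35 to 3.22) and flbE (1.31, 1.10 to 1.57) deletion libraries. It also kept more in the flbA and stuA deletion libraries, where PDE_04260 had 0 reads and the intervals began at 1.27 and 1.07. It kept less in the flbC (0.776, 0.642 to 0.938) and labelled abaA (0.792, 0.651 to 0.965) deletion libraries. The intervals of 7 of the 26 ratios held 1, which does not show that those changes were equal.

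**Figure D2:**
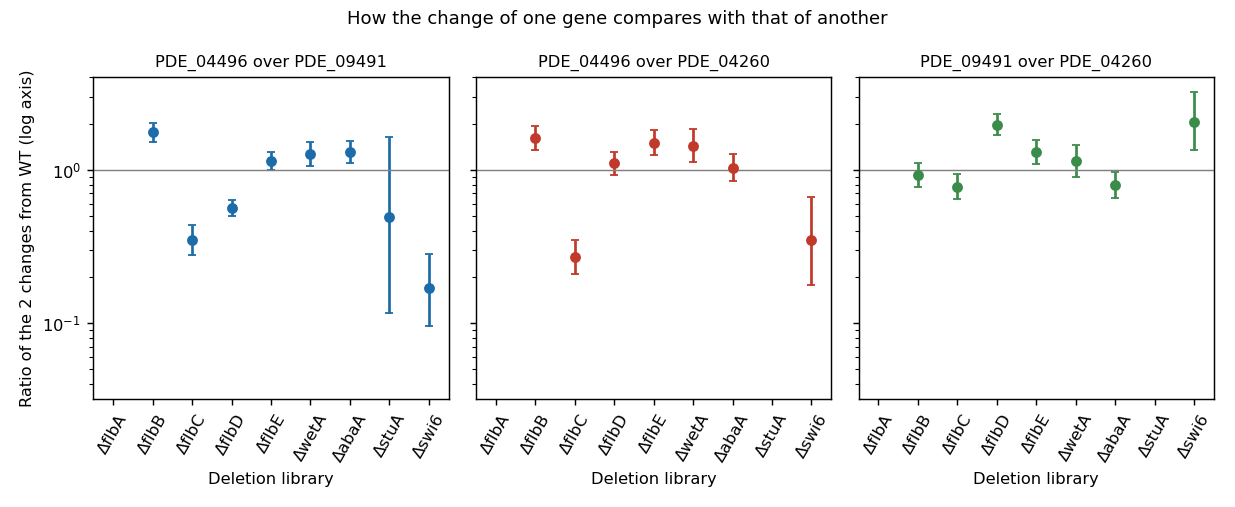
Ratio of the changes from wild type of 2 members in each deletion library (log axis), with exact 95% counting intervals, for the 3 pairs of members. A value below 1 means that the first gene kept less of its wild-type level. Ratios with a gene at 0 reads have no point. PDE_04496 lies below 1 against both other genes in the flbC and swi6 deletion libraries.

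A difference between the flbB, labelled flbD and flbE deletion libraries and the wetA and labelled abaA deletion libraries was noticed after the values were seen. PDE_04496 had 151 to 195 RPKM in the flbB, labelled flbD and flbE deletion libraries, and 86.1 to 101 RPKM in the wetA and labelled abaA deletion libraries. The synthase had 13.2 to 31.7 RPKM in those flb libraries and 8.05 to 9.09 RPKM in the wetA and labelled abaA libraries. PDE_04260 had 98.0 to 129 RPKM in those flb libraries and 56.8 to 92.0 RPKM in the other two. The flbC deletion library did not share this order for PDE_04496, whose 46.5 RPKM there lay below the wetA and labelled abaA values. In the same library PDE_09491 (15.7 RPKM) and PDE_04260 (162 RPKM) lay above theirs. The flbA deletion library went the other way for all 3 genes. With PDE_04496 at 0, PDE_09491 at 0.702 and PDE_04260 at 0 RPKM, it lay below the wetA and labelled abaA values. None of the 3 genes overlapped between the flbB, labelled flbD and flbE libraries and the wetA and labelled abaA libraries. For PDE_04260, however, the flbE and labelled abaA libraries did not differ beyond counting error (ratio 1.07, 0.876 to 1.30). Of the 9134 genes, 8.86% were higher in all 3 of those flb libraries than in the wetA and labelled abaA libraries, and 17.1% with median-of-ratios scaling, under which the 3 members stayed above. BrlA (PDE_00087) lay the other way, at 70.8 to 86.7 RPKM in those 3 flb libraries and 105 to 107 RPKM in the wetA and labelled abaA libraries. With median-of-ratios scaling its values overlapped.

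The main pigment genes served as the closest comparison, since PDE_09236 also bears the name scytalone dehydratase. PDE_09236 had 0 reads in the flbA, labelled flbD, wetA, labelled abaA and stuA deletion libraries and 1 read each in the flbB and flbE deletion libraries, against 865 RPKM in wild type. In the same labelled flbD, wetA and labelled abaA libraries PDE_04496 had 588, 292 and 363 reads. Reads of PDE_04496 were therefore not counted under PDE_09236 in these libraries. Relative to wild type, PDE_04496 kept 1465 times (261 to 57984) as much as PDE_09236 in the flbB and 1226 times (218 to 48515) as much in the flbE deletion library. For the labelled flbD, wetA and labelled abaA deletion libraries the lower ends of the intervals were 336, 166 and 207 times.

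In the flbC deletion library the relation was different. There PDE_04496 kept 0.875 times as much of its wild-type level as PDE_09236 (0.683 to 1.11), an interval that holds 1. In the swi6 deletion library it kept 0.563 times as much (0.308 to 0.979). The synthase kept more of its wild-type level than PDE_09236, PDE_09237 and PDE_09239 in each of the 9 deletion libraries, with the smallest ratio, 1.89 (1.63 to 2.21), against PDE_09239 in the flbC deletion library. PDE_09237, the polyketide synthase among the main genes, had at most 0.180 RPKM in the flbA, flbB, labelled flbD, flbE, wetA, labelled abaA and stuA deletion libraries. PDE_09491 had 8.05 RPKM or more in the flbB, labelled flbD, flbE, wetA and labelled abaA deletion libraries. The tyrosinase-named gene kept more than all 3 main genes in the flbB, flbC, labelled flbD, flbE, wetA and labelled abaA deletion libraries.

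**Figure D3:**
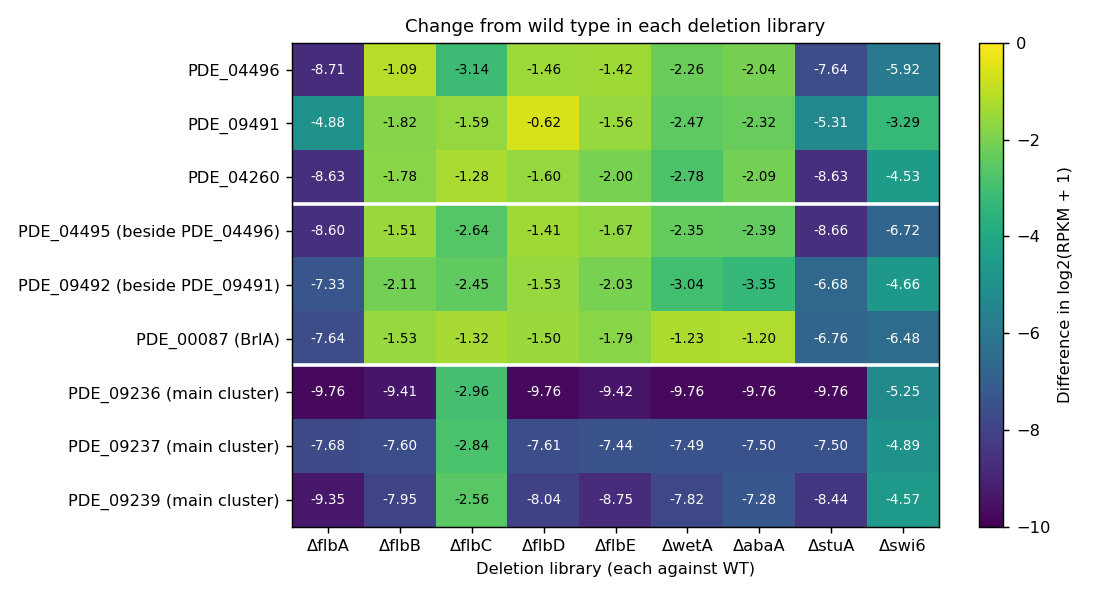
Difference in log2(RPKM + 1) from wild type in the 9 deletion libraries for the 3 members (top), the genes beside 2 of them and BrlA (middle) and 3 main pigment genes (bottom). The flbB, flbD, flbE, wetA and abaA columns hold values of -0.62 to -2.78 for the members and -7.28 to -9.76 for the main genes. Where a gene had 0 reads the value depends on the pseudocount of 1.

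Beside PDE_04496 lies PDE_04495, named 3-oxoacyl-[acyl-carrier protein] reductase, an enzyme name of fatty acid synthesis. Its best KEGG match, Pc21g16430, is numbered next to the match of PDE_04496 in P. chrysogenum too. PDE_04495 had 494 RPKM in the labelled flbD, 463 in the flbB, 413 in the flbE and 211 in the flbC deletion library, against 1318 RPKM in wild type. It had 258 RPKM in the wetA and 251 in the labelled abaA deletion library, and was lowest in the swi6 (11.5), flbA (2.40) and stuA (2.27) deletion libraries. It was lower in 9 of 9 deletion libraries, and in 5 of them its change did not differ from that of PDE_04496 beyond counting error. Among these 5 were the flbA, stuA and swi6 deletion libraries, where PDE_04496 had only 0, 4 and 17 reads. The intervals of the ratio were wide there (0 to 4.22, 0.362 to 4.96 and 0.877 to 2.87), so they do not show equal changes. They were narrower in the labelled flbD (0.863 to 1.08) and wetA (0.910 to 1.21) deletion libraries. Of the 4 that did differ, PDE_04496 kept less in the flbC deletion library, 0.695 times as much (0.556 to 0.862), and more in the flbB (1.33 times, 1.20 to 1.48), flbE and labelled abaA deletion libraries.

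On the other side, PDE_04497, named triacylglycerol lipase, was also lower in 9 deletion libraries and had 1 read (0.317 RPKM) in the flbA deletion library. It had 10.5 RPKM in the swi6 and 8.16 RPKM in the stuA deletion library, against 54.4 RPKM in wild type. Its levels in these 2 libraries were close to the 8.33 to 13.1 RPKM of the flbB, flbC, flbE, wetA and labelled abaA deletion libraries. Of the 9 kept genes within 5 locus numbers of PDE_04496, 2 were lower in all 9 deletion libraries, against 2.23% of the 9134 genes. Whether reads of neighbouring genes overlap was not tested, and the counting by strand is not given in the sources used here.

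Beside the synthase PDE_09491 lies PDE_09492, a gene of 1815 bases without a product name. It had 64.6 RPKM in the labelled flbD, 45.4 in the flbE, 43.0 in the flbB and 33.6 in the flbC deletion library, against 188 RPKM in wild type. It had 22.1 RPKM in the wetA and 17.5 in the labelled abaA deletion library, and was lowest in the swi6 (6.48), stuA (0.853) and flbA (0.178) deletion libraries. Compared with PDE_09492, the synthase kept more of its wild-type level in 8 of 9 deletion libraries, for instance 1.79 times as much (1.51 to 2.12) in the flbC deletion library. In the stuA deletion library the interval of the ratio held 1. On the other side PDE_09490, also unnamed, stayed between 12.3 and 30.2 RPKM in the deletion libraries, against 23.0 RPKM in wild type, and was lower in none. Of the 10 genes within 5 locus numbers, 1 was lower in all 9 deletion libraries, against 2.23% of the 9134 genes.

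Around PDE_04260 no neighbour that was lower in all 9 deletion libraries was found. PDE_04259, named amino acid transporter, had 1.52 to 20.2 RPKM in the deletion libraries, against 2.48 RPKM in wild type, and was lower in none. PDE_04261, unnamed, had at most 1.10 RPKM in any deletion library, against 1.13 RPKM in wild type, and did not pass the expression filter. Only 5 of the 10 flanking genes passed that filter, and none of the 5 was lower in more than 6 deletion libraries. Of the 9134 genes, 4.25% were lower in at least 8.

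**Figure D4:**
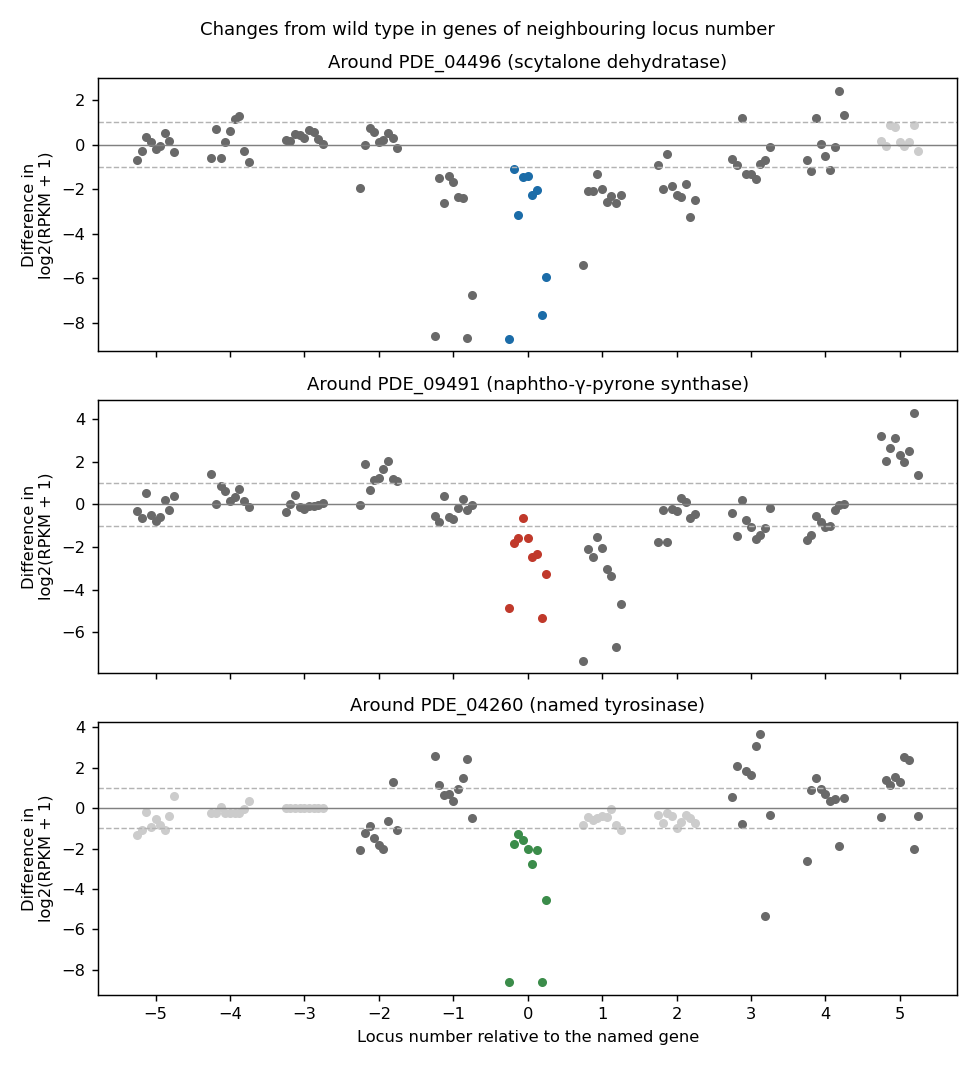
Difference in log2(RPKM + 1) from wild type for genes within 5 locus numbers of each member, 1 point per deletion library (from left the flb genes A to E, then wetA, abaA, stuA and swi6). Coloured points are the member, pale points genes below the expression filter, dashed lines 2-fold. The gene before PDE_04496 and the gene after PDE_09491 lie below the dashed line in 9 of 9 libraries, while PDE_09490, just before PDE_09491, stays between the dashed lines.

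Genes with the most similar pattern were ranked by the root mean square, over the 10 libraries, of the difference in log2(RPKM + 1) after each gene's own mean was subtracted. Against PDE_04496, 8246 other genes had a median value of 2.80, and the 5 closest were PDE_09452 (0.28), PDE_01065 (0.42), the neighbour PDE_04495 (0.42), PDE_09474 (0.52) and PDE_07091 (0.60). Of these, only PDE_04495 has a product name. PDE_09452 was lowest in the flbA (0.524 RPKM) and stuA (3.66 RPKM) deletion libraries, against 590.9 RPKM in wild type. The gene named BrlA, which activates conidiation in Aspergillus, came at rank 9 (0.77), PDE_04260 at rank 15 (0.86) and the synthase at rank 53 (1.45).

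For the synthase the median value was 1.62, and the closest 5 were PDE_01916 (0.43), PDE_07267 (0.45), PDE_03453 (0.47), PDE_03033 (0.49) and PDE_05462 (0.49), all without product names. Its neighbour PDE_09492 came at rank 24 (0.66). For PDE_04260 the median was 2.80, and the closest were PDE_00552 (0.65), PDE_03454 (0.65), PDE_03882 (0.74), PDE_09999 (0.77) and PDE_04495 (0.80). PDE_09999 is named FAD dependent monooxygenase, and PDE_03454 is numbered next to PDE_03453. The unnamed gene 4 locus numbers after PDE_04260 came at rank 116 (1.88), the closest of its ranked flanking genes. BrlA came at rank 19 for PDE_04260 (1.01) and at rank 1159 for the synthase (1.43). The root mean square also depends on the size of the changes, so a low rank does not mean a different order of libraries. Pearson's correlation of the synthase was 0.894 with BrlA, 0.931 with PDE_04496 and 0.962 with PDE_04260. With Pearson's correlation as the measure, 2 of the 5 genes were shared for the synthase, 1 of 5 for PDE_04260 and 5 of 5 for PDE_04496.

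The BrlA gene itself had 85.2 RPKM in the flbB and 98.8 RPKM in the flbC deletion library, against 248 RPKM in wild type. It was lowest in the swi6 (1.79 RPKM), stuA (1.30 RPKM) and flbA (0.249 RPKM) deletion libraries. All 4 genes were thus lowest in the flbA, stuA and swi6 deletion libraries. The change of PDE_04260 did not differ from that of BrlA beyond counting error in 5 of 9 deletion libraries, among them flbC (ratio 1.03, 0.858 to 1.24). The flbA deletion library is counted among them but cannot decide. PDE_04260 had 0 reads and BrlA 1 read there, and the interval ran from 0 to 103. PDE_04496 kept only 0.279 times (0.222 to 0.349) as much as BrlA in the flbC deletion library. In the wetA deletion library PDE_04496, PDE_09491 and PDE_04260 kept 0.485 (0.415 to 0.566), 0.384 (0.332 to 0.444) and 0.338 times (0.271 to 0.420) as much as BrlA. In the swi6 deletion library the synthase kept 11.6 times as much as BrlA (6.56 to 22.4). The part of BrlA or of sporulating cells in the members' levels was not tested.

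Other genes named for the same enzymes were counted in the same way. Both genes named scytalone dehydratase, PDE_04496 and PDE_09236, were lower in 9 of 9 deletion libraries. Of the 4 tyrosinase-named genes, PDE_04260 alone was lower in 9 deletion libraries, PDE_03554 was lower in 6, and PDE_04505 and PDE_04614 in 3 each. Of the 9134 genes, 2.23% were lower in all 9. Shares of all genes were not worked out for counts below 8, so the counts of 6 and 3 have no background. PDE_04505, numbered 9 after PDE_04496, had 244 RPKM in the stuA deletion library, against 16.8 RPKM in wild type, and 2.87 to 13.2 RPKM in the other deletion libraries. PDE_04260 had 0 reads in that same stuA deletion library. PDE_03554 was highest in the flbC deletion library, with 51.6 RPKM, against 15.7 RPKM in wild type. The only gene found for laccase, a polymerising enzyme of melanin, was PDE_00453, which had at most 1.12 RPKM in any library.

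**Figure D5:**
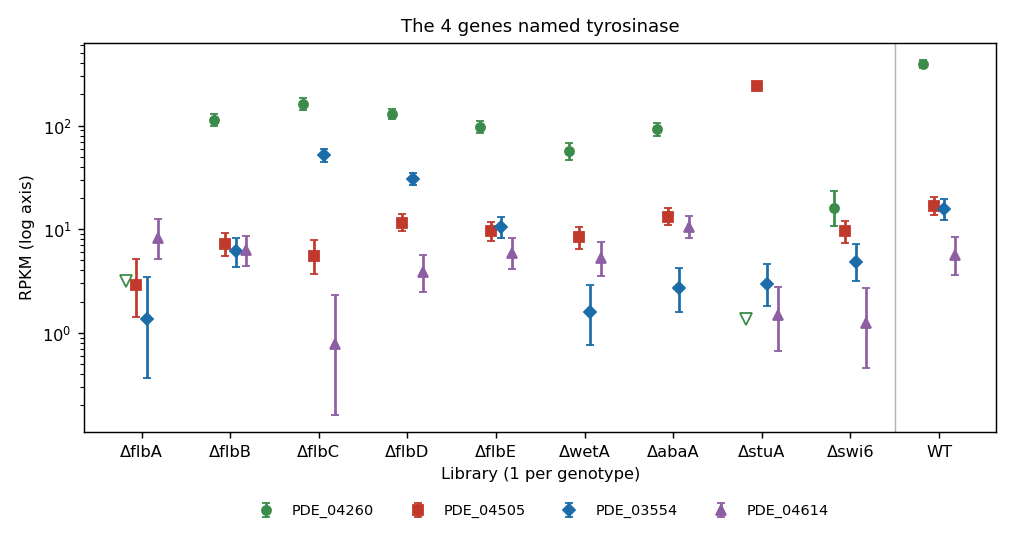
RPKM (log axis) of the 4 tyrosinase-named genes in the 9 deletion libraries and wild type, 1 library each, with exact 95% counting intervals. Open triangles mark the value of 3 reads where PDE_04260 had 0 reads. PDE_04260 is highest of the 4 in wild type with 395 RPKM, and PDE_04505 is highest in the stuA deletion library with 244 RPKM.

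Of the 7 genes named polyketide synthase, PDE_09237 was lower in 9, PDE_09491 in 8 and the type III synthase PDE_02110 in 6 deletion libraries. The count of 6 again has no share of all genes beside it. The 4 hybrid synthases (PDE_01235, PDE_04017, PDE_04252 and PDE_09198) were lower in at most 2. PDE_01235 and PDE_04252 had only 1.52 and 2.21 RPKM in wild type, where the pseudocount of 1 shrinks differences and makes a call less likely. By RPKM ratio, in the flbB deletion library PDE_01235 was 2.92-fold lower (2.02 to 4.30) and PDE_02110 2.09-fold lower (1.44 to 3.04). Neither was counted as lower there. In the swi6 deletion library PDE_01235 was higher, at 11.8 RPKM. Per library, 5 of the 7 were lower in the flbA deletion library (37.4% of all genes), 4 in the swi6 (11.9%) and 3 each in the flbE (21.2%), wetA (20.9%) and stuA (14.6%) deletion libraries. In the flbB (23.0%), flbC (8.85%), labelled flbD (12.7%) and labelled abaA (12.3%) deletion libraries 2 of the 7 were lower. PDE_09239 was the only gene named hydroxynaphthalene reductase. The median difference of the 7 in the swi6 deletion library was -1.06, against -0.14 over all 9134 genes, and in the labelled abaA deletion library -0.21, against 0.03. Tyrosine can also be broken down through homogentisate, whose oxidation gives pyomelanin in other moulds, and 10 genes were named for that route. In the flbC deletion library 6 of them were at least 2-fold higher and 1 lower, with a median of 1.17, against 0.12 over all genes, of which 14.6% were higher and 8.85% lower. Homogentisate dioxygenase (PDE_08906), which opens the ring, had 593 RPKM there, against 83.8 RPKM in wild type. In the flbA deletion library 7 of the 10 were lower and 0 higher, with a median of -2.24, against -0.64 over all genes, of which 37.4% were lower and 9.80% higher. In the other 7 deletion libraries the median of the 10 lay between -0.26 (swi6) and 0.28 (wetA), against -0.14 and -0.26 over all genes in those libraries. PDE_09761, a 4-hydroxyphenylpyruvate dioxygenase that forms homogentisate, reached 6030 RPKM in the swi6 deletion library, against 883 RPKM in wild type, and was lower in 7 deletion libraries.

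Among genes past 2-fold, the share that was lower moved with scaling. With median-of-ratios scaling it was 58.8% against 79.3% with read totals for flbA, and 43.6% against 65.7% for flbB. It was 43.8% against 66.1% for flbE, 46.2% against 60.3% for wetA and 41.8% against 52.1% for swi6. It moved the other way for flbC (44.7% against 37.7%) and the library labelled abaA (46.9% against 44.7%). It was 42.6% against 51.9% for the library labelled flbD and 43.8% against 52.3% for stuA. The median of all genes shifted by as much as -0.64 with read totals (flbA) and -0.11 with median-of-ratios scaling. All 27 differences of the members from wild type were below 0 under both scalings, the highest being -0.48 with median-of-ratios scaling for the synthase in the labelled flbD deletion library.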

How the data were processed

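RNA of 10 mycelial libraries was analysed, 1 per genotype. Per the file headers, each gene has 3 deposited values a library: a read count (unique placements), an RPKM and the percent of its length under reads. CASAVA 1.8 is named in the submitters' processing notes. For the aligner, build and annotation, versions were not given in the sources used here. Counts summed to the header totals in 10 of 10 libraries, RPKM recomputed from them to within a relative gap of 2.57e-08, and a dash was read as 0. Gene lengths are multiples of 3 for 9856 of 9859 genes.

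Members, lists and comparisons were chosen with earlier results of these data known. Differences are log2(RPKM + 1) minus wild type, for 9134 genes averaging at least 1 RPKM (725 were removed, and 3 of 3 members passed). No test was run, since a genotype is 1 library. Intervals are exact conditional intervals at 95% from read counts, which carry no molecular identifiers. A gene at 0 reads was set at 3 reads only for the fold bounds and the figure triangles. Differences in log2(RPKM + 1) and ratios between genes kept the 0. Likeness used genes with at least 10 RPKM in their highest library. The text names the members, the 5 most similar genes and the 2 adjacent loci of each, the main pigment genes, BrlA, FlbD, other targeted genes and genes of annotation lists (scytalone dehydratase, hydroxynaphthalene reductase, tyrosinase, laccase, polyketide synthase, tyrosine to homogentisate). Calculations used Python 3.11.15, numpy 2.4.6, pandas 2.3.3 and scipy 1.17.1, checked on simulated data. Alternatives were other scalings, pseudocounts, filters and left-out libraries.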

Additional observations from a re-analysis of the deposited data

How the results depend on the processing

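The count of deletion libraries in which a member was lower stayed at 7 of 7 to 9 of 9 for PDE_04496 and PDE_04260 under the alternatives tried, except that for PDE_04496 the flbB deletion library was lost with median-of-ratios scaling and when the whole interval had to lie beyond 2-fold (8 of 9 each). For PDE_09491 it stayed at 8 of 9 under other scalings and pseudocounts, with 7 of 7 without the libraries labelled flbD and abaA and 7 of 8 without the flbA library. No member's difference changed sign in 27 values under each of 4 settings. Median-of-ratios scaling moved 9 of the 27 by more than their counting interval, a pseudocount of 5 moved 8, a pseudocount of 0.1 moved 3 and totals without PDE_06605 moved 1. Over all genes, 1211 were lower in the flbB and 1101 in the flbE deletion library with median-of-ratios scaling, against 2103 and 1940 with read totals. With a pseudocount of 5 there were 1360 (flbB), 717 (labelled flbD), 1193 (flbE) and 720 (swi6), against 2103, 1157, 1940 and 1090. Of the 5 genes most similar to PDE_09491, 2 were shared with Pearson's correlation as likeness and 2 without the flbA library, and of those for PDE_04260 1 was shared with Pearson's correlation. The cause of these moves was not tested. No paired analysis was possible because each genotype has 1 library. In the flbA and stuA deletion libraries the members have at most 14 reads, so depth limits their order there.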
